A study of Homo sapiens with 6 samples.

Results

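The genes described here encode the proteasome: the subunits of its catalytic core and regulatory cap, its activators, its inhibitor and its assembly chaperones. They were taken as every gene of the deposited table whose symbol starts with PSM, a letter from A to G and a digit. The pattern uses no measured value, but it was chosen with earlier results of these data known. It gave 48 of 16809 genes, of which 46 encode subunits, regulators or chaperones. PSMC3IP and PSME3IP1 match the pattern by name but encode interaction partners that are no subunits. CAL-27, an established line of human squamous carcinoma of the tongue, gave all libraries. The 3 ES-Cu libraries (ESCU) were from cells given elesclomol together with copper at equal ratio for 24 h, and the 3 control libraries (CON) were labelled as normal control. Elesclomol is an ionophore that carries copper into cells, and the submitters used the pair to study cuproptosis, a copper-dependent form of cell death. The sources used here give neither the doses and the vehicle nor the number of cultures behind the libraries. Each p-value therefore speaks only for these libraries, whose spread within groups may be technical variation. Elesclomol and copper were given together, and their parts cannot be told apart. The squamous markers KRT5, KRT6A, KRT17, EPCAM, CDH1 and TP63 were present in all libraries, with KRT5 averaging 853 TPM in both groups, while KRT14 averaged 4.19 TPM in ES-Cu and 4.73 TPM in control. The squamous markers were not level between groups: TP63 fell to 24.5 TPM in ES-Cu against 86.8 TPM in control and CDH1 to 71.3 TPM in ES-Cu against 173 TPM in control, both lower by limma in the 3 scalings used here, and KRT6A rose to 234 TPM in ES-Cu against 174 TPM in control. The part of these shifts in the results was not tested. The leukocyte and endothelial markers PTPRC and PECAM1 and the fibroblast marker COL3A1 lay at 0.15 TPM or less in every library, and COL1A1 averaged 3.62 TPM in ES-Cu and 8.36 TPM in control.

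The proteasome degrades proteins tagged with ubiquitin. Its barrel-shaped core is built of outer alpha rings (PSMA genes) and inner beta rings (PSMB genes), whose catalytic sites are formed by PSMB5, PSMB6 and PSMB7 or, in the immunoproteasome that interferon induces, by PSMB8, PSMB9 and PSMB10. A regulatory cap recognises, unfolds and feeds in the substrate through a ring of ATPases (PSMC genes) and the non-ATPase subunits of the base and lid (PSMD genes). Alternative activators (PSME genes) can replace the cap, and dedicated chaperones assemble core and base. When the proteasome is overloaded, cells are known to raise many subunit genes together through the transcription factor NRF1, encoded by NFE2L1.

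Levels are given as TPM, the share of transcripts corrected for gene length, so that levels of different genes can be compared. Read totals cannot be recovered from TPM, and library depth and counting error are therefore unknown. Differences are log2 fold changes of log2(TPM + 1), ES-Cu minus control, with the standard error (SE) and the Benjamini-Hochberg adjusted p of limma over all 11927 tested genes. The median tested gene had a log2 fold change of -0.50 as deposited, 0.00 once libraries were scaled to a common median ratio (median-of-ratios scaling) and -0.07 after quantile normalization. A gene is therefore said to rise or fall only where limma called it with one sign, at an adjusted p under 0.05, in all 3 scalings. Libraries correlated across tested genes at r = 0.994 to 0.995 within groups and 0.937 to 0.939 between them, and no batch was named in the labels. In bulk RNA, fewer cells of a type and less RNA per cell cannot be told apart.

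All 48 members were measured above the minimum for testing. In ES-Cu, 14 members rose and 7 fell in all 3 scalings, 29.2% and 14.6% of the members, whereas 13.5% of all tested genes rose and 31.2% fell. The rising members were spread over the core, the base, the lid and PSME4. The falling ones were the 3 immunoproteasome subunits, the assembly chaperones PSMD5, PSMD10 and PSMG4, and PSME3IP1. Rises reached 2.36 times the control mean for the lid subunit PSMD12, and the lowest ratio was 0.371 for PSMG4. The members' median log2 fold change was -0.04, against -0.50 for all tested genes.

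**Figure D1:**
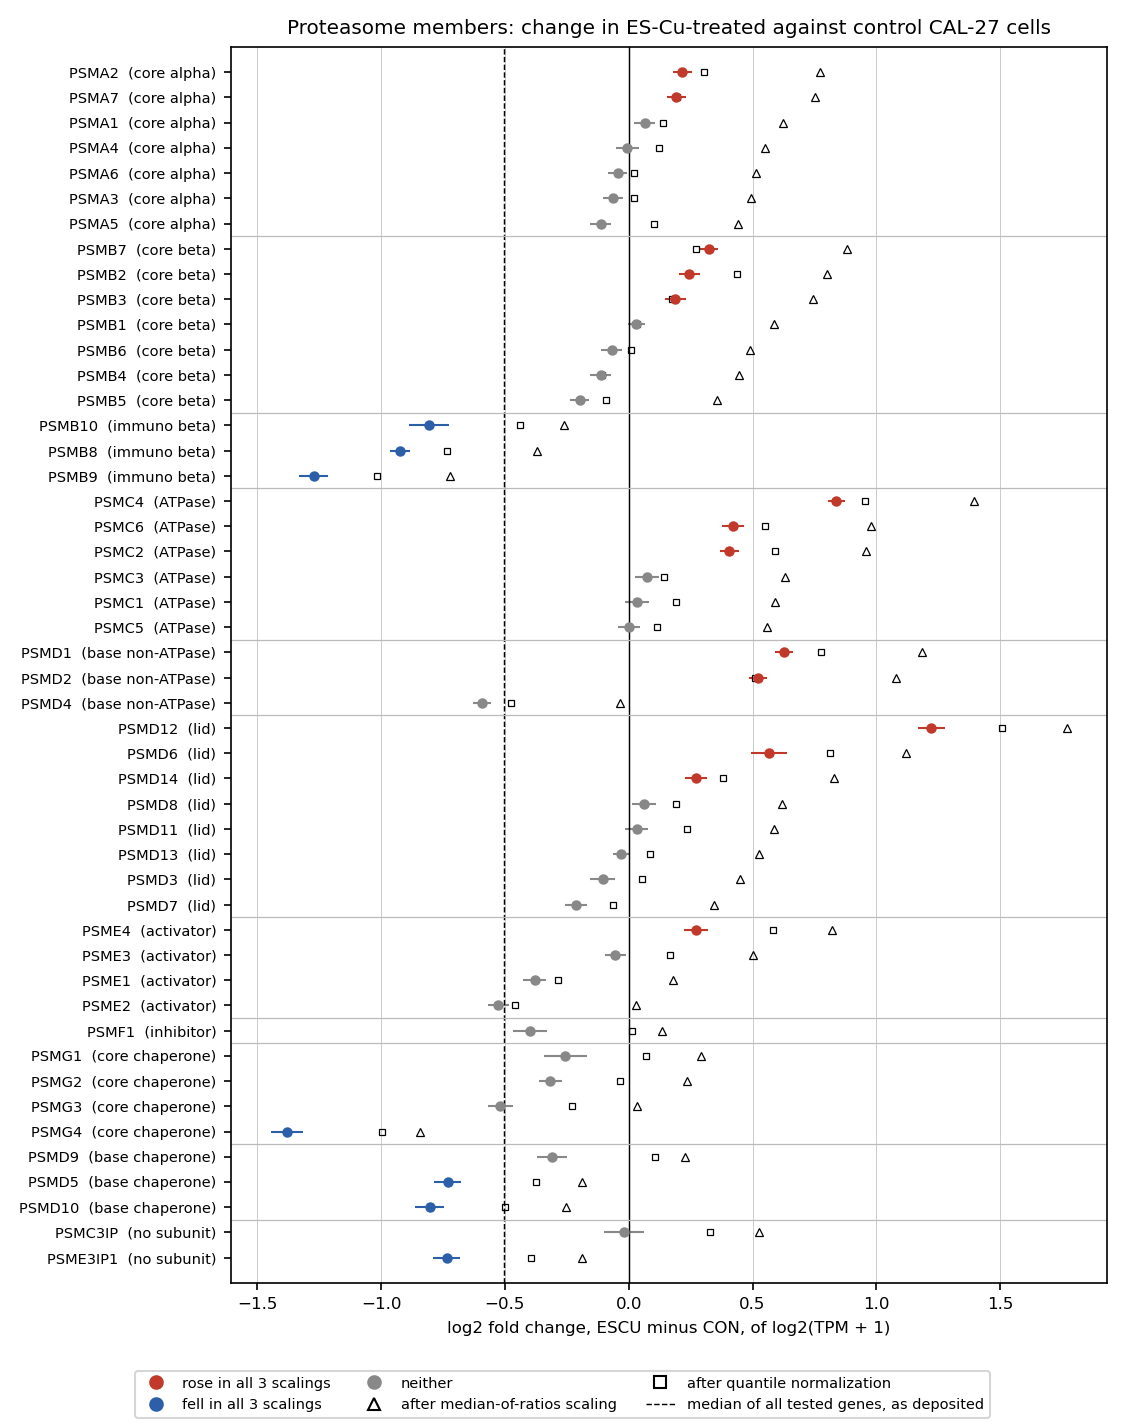
Log2 fold change (ES-Cu minus control, of log2(TPM + 1)) of the 48 members by role, as filled circles with SE bars for the deposited scale (n = 3 libraries per group), triangles after median-of-ratios scaling and squares after quantile normalization; the dashed line is the median of all tested genes as deposited, -0.50. The 14 red members rose and the 7 blue members fell in all 3 scalings, with PSMD12 the highest and PSMG4 the lowest.

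On the deposited scale alone, 14 members were called higher and 19 lower, against 13.6% higher and 70.0% lower among all tested genes. The other 15 had log2 fold changes between -0.11 and 0.07. After median-of-ratios scaling 37 members were called higher and 7 lower (38.0% and 35.8% of all tested genes). After quantile normalization the numbers were 24 and 13 (31.4% and 39.9%). The direction of the 27 members outside the calls above therefore depended on the scale, or their size did not pass the test on one of them. The libraries of the groups did not overlap for 14 members above control and 19 below it, where 14.0% and 70.3% of all tested genes were separated in this way.

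The alpha subunits form the gated outer rings of the core. Of the 7, PSMA2 and PSMA7 rose, and none fell, where 13.5% of all tested genes rose and 31.2% fell. PSMA2 stood at 530, 567 and 565 TPM in ES-Cu and at 474, 484 and 471 TPM in control (log2 fold change 0.22 ± 0.038 (SE), adjusted p = 2.76e-04, limma). All ES-Cu libraries lay above all control libraries. PSMA5 was at 118, 121 and 124 TPM in ES-Cu and 126, 135 and 132 TPM in control. It had the lowest log2 fold change of the ring, -0.11, which was 0.44 after median-of-ratios scaling. PSMA7 averaged 749.6 ± 10.1 TPM in ES-Cu and 656 ± 27.5 TPM in control (SD, n = 3 each). It was the most abundant alpha subunit in both groups, and PSMA5 the least abundant. PSMA1, PSMA3, PSMA4 and PSMA6 overlapped between groups, with log2 fold changes of -0.06 to 0.06 as deposited and 0.49 to 0.62 after median-of-ratios scaling.

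The beta rings carry the proteolytic sites. Of the 7 constitutive beta subunits, PSMB7, PSMB2 and PSMB3 rose, and none fell, where 13.5% of all tested genes rose and 31.2% fell. PSMB7, the trypsin-like site, was at 1537, 1474 and 1576 TPM in ES-Cu and at 1221, 1229 and 1215 TPM in control (log2 fold change 0.32 ± 0.036 (SE), adjusted p = 6.96e-06, limma). It was the most abundant member in both groups, and its groups were clearly apart. The caspase-like site PSMB6 was at 561, 578 and 591 TPM in ES-Cu and 628, 575 and 614 TPM in control, and the groups overlapped. PSMB5, the chymotrypsin-like site and the main target of proteasome inhibitor drugs, was at 376, 395 and 379 TPM in ES-Cu and 446, 427 and 448 TPM in control. All its ES-Cu libraries were below control on the deposited scale (log2 fold change -0.20). PSMB5 was called higher after median-of-ratios scaling (0.36) but lower after quantile normalization (-0.09, adjusted p = 0.0484, limma). PSMB2 and PSMB3, which form no catalytic site, had log2 fold changes of 0.25 and 0.19. PSMB1 and PSMB4, also without a catalytic site, had 0.03 and -0.11.

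All 3 immunoproteasome subunits fell, where 31.2% of all tested genes fell. PSMB8 was at 108, 112 and 113 TPM in ES-Cu, against 216, 212 and 208 TPM in control (log2 fold change -0.92 ± 0.040 (SE), adjusted p = 6.11e-09, limma). PSMB9 was at 64.5, 66.2 and 56.6 TPM in ES-Cu, against 150.5, 149.8 and 155.6 TPM in control (-1.27 ± 0.059, adjusted p = 9.33e-09, limma). PSMB10 was at 25.1, 30.04 and 26.6 TPM in ES-Cu, against 53.5, 45.8 and 45.8 TPM in control (-0.81 ± 0.080, adjusted p = 2.80e-06, limma). No ES-Cu library overlapped a control library for any of them, and 70.3% of all tested genes lay below control in this way. The fall of PSMB10 was the least firm: after median-of-ratios scaling its log2 fold change of -0.26 had an adjusted p of 0.0229, which became 0.0867 without ES-Cu replicate 1, 0.0644 without ES-Cu replicate 3 and 0.0878 without control replicate 1 (limma).

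Dividing a library by one factor leaves the ratios within it as they are. PSMB8 stood at 28.98% ± 0.773 of its constitutive counterpart PSMB5 in ES-Cu and at 48.1% ± 1.61 in control (SD, n = 3 each). PSMB9 stood at 10.8% ± 1.10 of PSMB6 in ES-Cu and at 25.1% ± 1.06 in control. PSMB10 stood at 1.79% ± 0.220 of PSMB7 in ES-Cu and at 3.96% ± 0.368 in control. In each of the 3 pairs every ES-Cu library was below every control library. The log2 ratios differed by -0.73, -1.22 and -1.15 for PSMB8, PSMB9 and PSMB10 (exact two-sided permutation p = 0.1 each and 0.1 after adjustment over the 3 pairs, the smallest that 3 against 3 libraries allow). Quantile normalization, which is no division by one factor, gave smaller differences of -0.64, -1.03 and -0.71, so that the difference for PSMB10 depended on the scale by over 1.5 times.

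**Figure D2:**
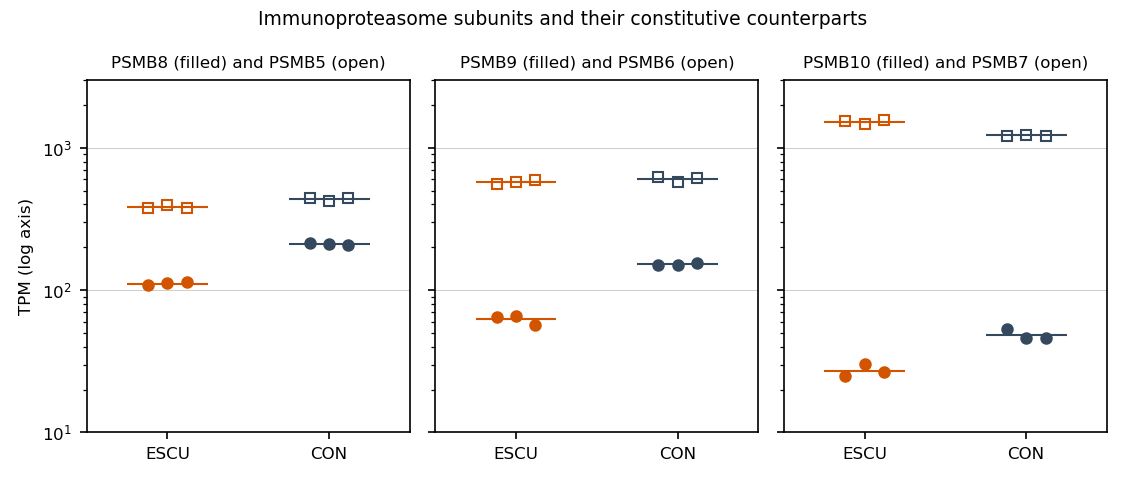
TPM (log axis) of each immunoproteasome subunit (filled circles) and its constitutive counterpart (open squares) in each ES-Cu and control library, with the group mean as a line (n = 3 per group). PSMB8, PSMB9 and PSMB10 sit lower in every ES-Cu library than in any control library. Of the counterparts, PSMB5 also sits lower, PSMB7 sits higher and PSMB6 overlaps.

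The ATPases form the ring that unfolds the substrate. Of the 6, PSMC4, PSMC6 and PSMC2 rose, and none fell, where 13.5% of all tested genes rose and 31.2% fell. PSMC4 was at 499, 506 and 514 TPM in ES-Cu, against 283, 281 and 284 TPM in control (log2 fold change 0.84 ± 0.034 (SE), adjusted p = 4.16e-09, limma). This was 1.79 times the control mean, with no overlap. PSMC6 averaged 286 ± 12.02 TPM in ES-Cu and 213 ± 9.12 TPM in control, and PSMC2 averaged 207 ± 0.890 TPM in ES-Cu and 156 ± 4.12 TPM in control (SD, n = 3 each). PSMC5 was at 398, 373 and 365 TPM in ES-Cu and 376, 366 and 391.6 TPM in control, and its groups overlapped fully (log2 fold change 0.00 ± 0.044, adjusted p = 0.961, limma). PSMC1 and PSMC3 had log2 fold changes of 0.03 and 0.07 as deposited, and both were called higher in the other 2 scalings. Within a library, PSMC4 lay 0.82 ± 0.077 above the median log2 TPM of the 5 other ATPases in ES-Cu and 0.41 ± 0.069 above it in control (SD, n = 3 each). No p-value is given for this difference, because PSMC4 was picked for its log2 fold change.

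The non-ATPase subunits of the base dock ubiquitin and shuttle proteins. PSMD1 and PSMD2, its large scaffolds, rose. PSMD1 was at 315, 310 and 317 TPM in ES-Cu, against 197, 207 and 205 TPM in control (log2 fold change 0.63 ± 0.037 (SE), adjusted p = 5.16e-08, limma). PSMD2 averaged 1145 ± 33.3 TPM in ES-Cu and 797 ± 11.2 TPM in control. The ubiquitin receptor PSMD4 was below control on the deposited scale, at 278, 288 and 279 TPM in ES-Cu against 424, 418 and 435 TPM in control. Deposited and quantile-normalized values gave log2 fold changes of -0.59 and -0.48, whereas median-of-ratios scaling gave -0.04 and no call (adjusted p = 0.436, limma). Relative to the median gene on the deposited scale, its log2 fold change was -0.09, while that of PSMD1 was 1.13 and that of PSMD2 was 1.03. ADRM1, the other ubiquitin receptor of the base, has no PSM symbol and overlapped between groups, at 281 ± 6.41 TPM in ES-Cu and 266 ± 18.0 TPM in control.

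The lid removes ubiquitin chains before the substrate is threaded into the core. Of its 8 PSMD subunits, PSMD12, PSMD6 and PSMD14 rose, and none fell, where 13.5% of all tested genes rose and 31.2% fell. PSMD12, a scaffold subunit, was at 116, 109.6 and 101 TPM in ES-Cu, against 45.6, 46.4 and 45.8 TPM in control (log2 fold change 1.22 ± 0.055 (SE), adjusted p = 7.73e-09, limma). It had the highest log2 fold change of all members, and each ES-Cu library held over 2 times the level of any control library. PSMD6 averaged 138 ± 3.16 TPM in ES-Cu and 93.4 ± 10.7 TPM in control, and PSMD14, the deubiquitinase of the lid, 475 ± 24.7 TPM in ES-Cu and 393 ± 12.1 TPM in control (SD, n = 3 each). PSMD7, the partner of PSMD14, was at 236, 236 and 218 TPM in ES-Cu and 259, 274 and 266 TPM in control. It had the lowest log2 fold change of the lid, -0.21, which was 0.34 after median-of-ratios scaling. PSMD3, PSMD8, PSMD11 and PSMD13 had log2 fold changes of -0.11 to 0.06.

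PSMD12 was the least abundant lid subunit in control, where its log2 ratio to the median of the 7 other lid subunits was -2.55. In ES-Cu this ratio was -1.16. PSMD12 was picked for its log2 fold change, so no p-value is given for this ratio or for the spread it enters. The levels of the 8 lid subunits were closer to each other in ES-Cu, with an SD over subunits of 0.74 ± 0.015 on the log2 TPM scale, against 1.08 ± 0.029 in control (SD over n = 3 libraries each). The same spread was 0.71 in ES-Cu and 0.72 in control for the ATPases, 1.02 and 1.01 for the constitutive beta subunits, and 0.90 and 0.83 for the alpha subunits. The mean log2 TPM of the 17 cap subunits was compared with that of the 14 constitutive core subunits. The cap lay 0.79 ± 0.019 below the core in ES-Cu and 0.99 ± 0.021 below it in control. The exact two-sided permutation p was 0.1, and 0.118 after adjustment over 13 sums, ratios and spreads, with those of picked genes among them. The median log2 fold change was 0.07 for the cap subunits and 0.01 for the core subunits. Of the 17 cap subunits 8 rose, and of the 14 core subunits 5, where 13.5% of all tested genes rose.

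**Figure D3:**
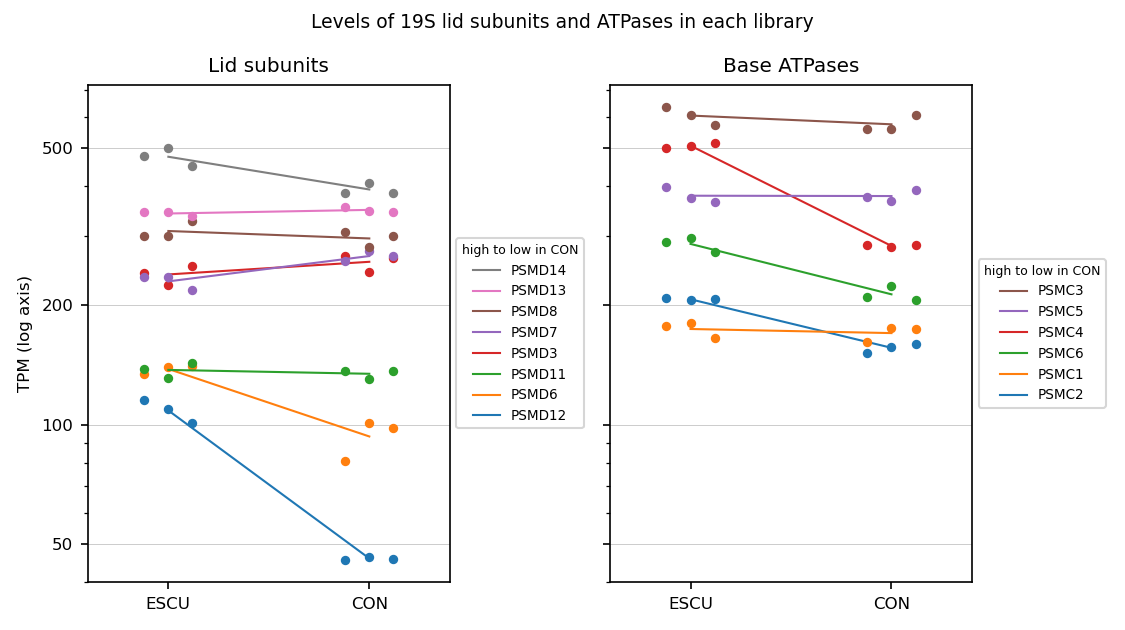
TPM (log axis) of the 8 lid subunits and 6 ATPases in each ES-Cu and control library (points), with lines joining the group means (n = 3 per group). PSMD12 and PSMD6, the lowest lid subunits in control, sit higher in every ES-Cu library, as do PSMD14, PSMC4, PSMC6 and PSMC2. Most other lines are close to level.

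The activators open the core without ATP. PSME4, the large nuclear activator PA200, rose, at 69.3, 65.5 and 70.5 TPM in ES-Cu against 57.1, 57.4 and 54.9 TPM in control (log2 fold change 0.27 ± 0.049 (SE), adjusted p = 2.95e-04, limma). PSME1 and PSME2 encode the interferon-inducible activator PA28. PSME2 was at 430, 441 and 425 TPM in ES-Cu and 656, 603 and 611 TPM in control, and PSME1 averaged 384 ± 8.58 TPM in ES-Cu and 501 ± 30.4 TPM in control. Both were separated from control on the deposited scale, with log2 fold changes of -0.53 and -0.38. After median-of-ratios scaling they were 0.03, not called, and 0.18, called higher. After quantile normalization they were -0.46 and -0.29, both called lower. PSME3, the nuclear PA28 subunit, overlapped between groups (-0.05). PSMF1, an inhibitor of the core in vitro, was at 18.4, 18.2 and 20.2 TPM in ES-Cu and 26.3, 23.8 and 25.9 TPM in control. It had a log2 fold change of -0.40 as deposited and 0.14 after median-of-ratios scaling.

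Assembly chaperones guide subunits into the rings and are not part of the finished particle. Of the 7, PSMG4, PSMD10 and PSMD5 fell and none rose, where 31.2% of all tested genes fell. All 7 were called lower on the deposited scale, as were 70.0% of all tested genes. The median log2 fold change was -0.42 for the 4 PSMG chaperones of the core and -0.73 for the 3 chaperones of the base, against -0.50 for all tested genes. PSMG4 was at 17.2, 16.3 and 18.5 TPM in ES-Cu, against 48.6, 44.3 and 47.3 TPM in control (log2 fold change -1.38 ± 0.065 (SE), adjusted p = 1.11e-08, limma). PSMG3, with which PSMG4 forms the dimer that helps build the alpha ring, averaged 73.0 ± 2.87 TPM in ES-Cu and 105 ± 4.21 TPM in control, and its log2 fold change of -0.52 became 0.03 after median-of-ratios scaling. The log2 ratio of PSMG4 to PSMG3, described because PSMG4 had the lowest log2 fold change, was -2.07 ± 0.115 in ES-Cu and -1.17 ± 0.107 in control (SD, n = 3 each). PSMG1 was at 54.0, 44.1 and 50.9 TPM in ES-Cu and 52.8, 64.3 and 61.4 TPM in control, so that the groups overlapped. PSMG1 and its partner PSMG2 had log2 fold changes of -0.26 and -0.32 as deposited, and 0.29 and 0.24 after median-of-ratios scaling.

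The chaperones of the base each hold ATPases before the ring closes. PSMD10 (gankyrin), which binds PSMC4, was at 56.1, 55.2 and 49.8 TPM in ES-Cu, against 89.1, 96.0 and 98.3 TPM in control (log2 fold change -0.80 ± 0.059 (SE), adjusted p = 2.46e-07, limma). PSMD5 averaged 29.6 ± 1.31 TPM in ES-Cu and 49.8 ± 0.821 TPM in control (-0.73). PSMD10 thus fell while the ATPase it binds rose. PSMD9 was at 21.2, 20.2 and 20.5 TPM in ES-Cu and 24.6, 26.4 and 26.4 TPM in control (-0.31 as deposited, 0.23 after median-of-ratios scaling). Among the genes that only share a subunit's name, PSME3IP1 fell, to 33.9 ± 1.04 TPM in ES-Cu against 57.2 ± 2.54 TPM in control, and PSMC3IP, a meiotic recombination partner, was at 43.8 ± 4.76 TPM in ES-Cu and 44.3 ± 3.44 TPM in control.

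The 46 subunits, regulators and chaperones together held 15800 ± 56.2 TPM in ES-Cu and 15178 ± 45.3 TPM in control, or 1.58% and 1.52% of all transcripts (SD, n = 3 each, exact two-sided permutation p = 0.1). Within this sum the ATPases took 13.6% ± 0.314 in ES-Cu and 11.7% ± 0.240 in control, and the PSMD genes 24.2% ± 0.215 in ES-Cu and 22.6% ± 0.0832 in control. The immunoproteasome subunits took 1.27% ± 0.0384 in ES-Cu and 2.71% ± 0.0502 in control, the activators 6.42% ± 0.0537 in ES-Cu and 8.67% ± 0.0997 in control, and the PSMG chaperones 1.41% ± 0.0179 in ES-Cu and 2.07% ± 0.0706 in control. The groups did not overlap for any of these classes. Abundant genes weigh most in such a share: PSMD2 averaged 1145 TPM in ES-Cu and 797 TPM in control. On the deposited scale, 5 of the 14 PSMD genes were called higher and 5 lower. Of the 4 activators, 1 was called higher and 2 lower, where 13.6% of all tested genes were called higher and 70.0% lower. The share of the alpha subunits overlapped, at 21.4% ± 0.169 in ES-Cu and 21.3% ± 0.332 in control (exact two-sided permutation p = 1). The constitutive beta subunits took 31.6% ± 0.272 in ES-Cu and 30.8% ± 0.301 in control, and PSMF1 0.120% ± 0.00743 in ES-Cu and 0.167% ± 0.00897 in control. Apart from the alpha subunits, each class had an exact two-sided permutation p of 0.1, and 0.114 after adjustment over the 8 classes, a design that cannot go lower than 0.1 before adjustment. On quantile-normalized values the difference of the beta share changed sign, at -0.63 percentage points in place of 0.80 on deposited TPM, and that of the PSMG chaperones was -0.39 in place of -0.66 and that of PSMF1 -0.012 in place of -0.047.

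**Figure D4:**
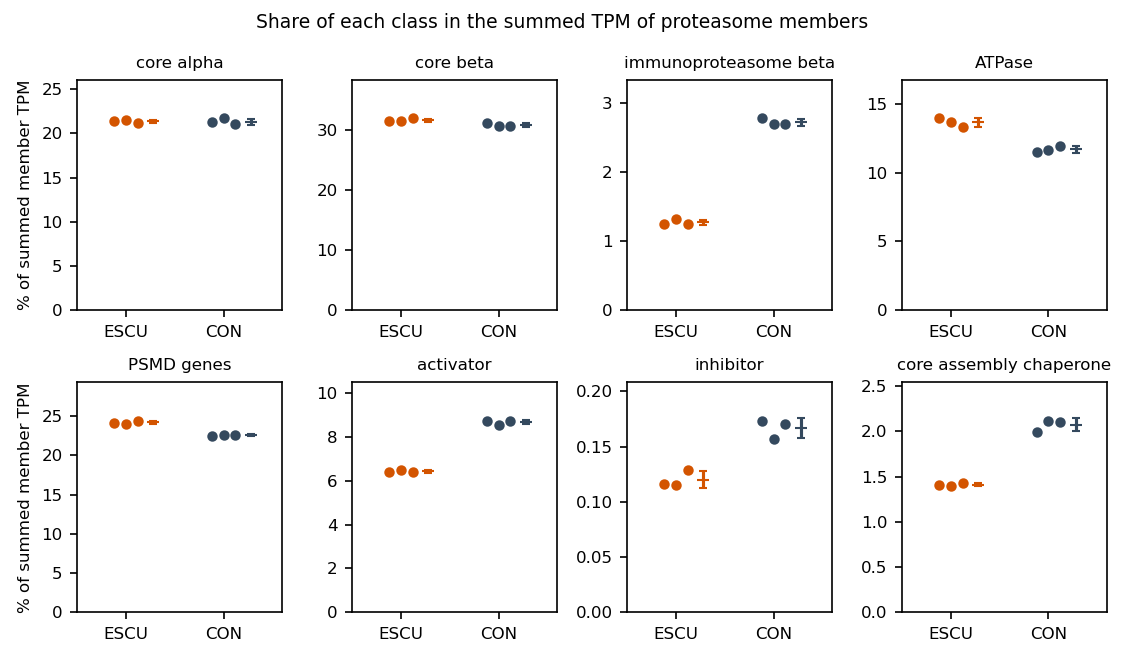
Share of each class in the summed TPM of the 46 members that are subunits, regulators or chaperones, in percent, for each ES-Cu and control library (points), with mean and SD beside them (n = 3 per group; each axis starts at 0). The ATPases and PSMD genes take larger shares in ES-Cu, the immunoproteasome subunits, activators and PSMG chaperones smaller ones, and the alpha subunits about the same.

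Genes that work with the proteasome under other symbols were listed by role, and 28 of the 29 listed were in the table and tested. In ES-Cu 12 rose and 4 fell in all 3 scalings, 42.9% and 14.3% of the list, whereas 13.5% of all tested genes rose and 31.2% fell. The list's median log2 fold change was 0.07, against -0.50 for all tested genes. Because the list was chosen with earlier results of these data known, these values only describe it. ZFAND2A, an arsenite-inducible protein that binds the cap, had by far the highest value, at 1560, 1519 and 1527 TPM in ES-Cu against 55.4, 52.3 and 39.6 TPM in control (log2 fold change 4.95 ± 0.096 (SE), adjusted p = 1.21e-11, limma). ZFAND5, a related activator of the cap, was at 137, 140 and 133 TPM in ES-Cu, against 50.8, 55.6 and 52.2 TPM in control (1.35). The groups were far apart for both. POMP, which matures the core, averaged 319 ± 11.9 TPM in ES-Cu and 207 ± 10.4 TPM in control, and TXNL1, a thioredoxin bound to the cap, 161.5 ± 1.05 TPM in ES-Cu and 105 ± 0.982 TPM in control. POMP thus rose and PSMG4, which acts at an earlier step of core assembly, fell. Their log2 ratio was 4.203 ± 0.051 in ES-Cu and 2.15 ± 0.131 in control (SD, n = 3 each). The pair was picked for these calls, so no p-value is given for it.

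Also called higher in all 3 scalings were the shuttle factors UBQLN1 and RAD23B, the peptidase TPP2, the cap-bound PITHD1, the nuclear import factor AKIRIN2, the deubiquitinase USP14, NFE2L2 and the proteasome-bound ECPAS, with log2 fold changes of 0.16 to 0.51. Without control replicate 1, ECPAS lost its call (adjusted p = 0.0636, limma). The largest fall was in PAAF1, which chaperones PSMC5, at 10.03, 12.7 and 12.4 TPM in ES-Cu against 36.9, 33.3 and 37.2 TPM in control (log2 fold change -1.54 ± 0.089 (SE), adjusted p = 4.44e-08, limma). The others were the shuttle factor UBQLN4 (-0.82), STAT3 (-0.76) and the peptidase THOP1 (-0.72). THOP1 lost its call after median-of-ratios scaling without ES-Cu replicate 1 or 2 or control replicate 1 or 3 (adjusted p = 0.065 to 0.0761, limma). Of the genes of the NRF1 route, NFE2L1 itself was at 97.7, 88.8 and 90.0 TPM in ES-Cu and 109.8, 113.8 and 116.7 TPM in control, which gave -0.30 on the deposited scale and 0.25 after median-of-ratios scaling, both log2 fold changes. DDI2, the protease that activates NRF1, had -0.60 as deposited and -0.10, not called, after median-of-ratios scaling (adjusted p = 0.258, limma). NGLY1, which removes its sugar chains, had 0.08 as deposited (adjusted p = 0.304, limma) and was called higher in the other 2 scalings. Of these 3 genes, NFE2L1 changed sign between scalings, and DDI2 and NGLY1 kept their sign but were not called in every scaling.

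**Figure D5:**
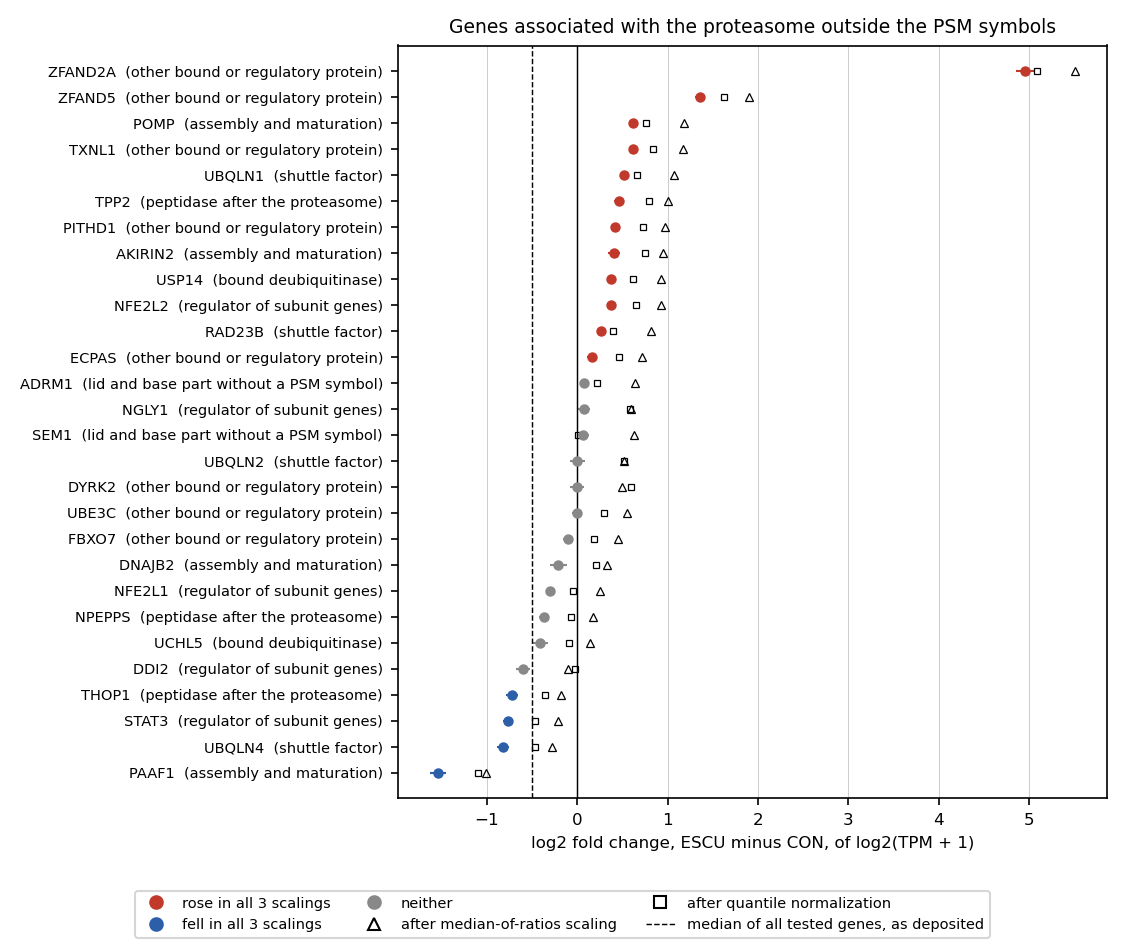
Log2 fold change (ES-Cu minus control, of log2(TPM + 1)) of the 28 tested genes associated with the proteasome, as filled circles with SE bars for the deposited scale (n = 3 libraries per group), triangles after median-of-ratios scaling and squares after quantile normalization; the dashed line is the median of all tested genes as deposited. ZFAND2A stands far to the right at 4.95 and PAAF1 lowest at -1.54.

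NRF1 and NRF2 bind antioxidant response elements, so the promoters of the members were searched for the core of that element. RefSeq promoter windows (GRCh38.p14), from 250 bases before to 50 after the start, were found for 42 of the 48 members, and those of PSMA7, PSMB1, PSMB6, PSMB7, PSMD4 and PSMG3 were not used here. TGANNNNGC, on either strand, was present in 27 of 42 members (64.3%) and in 51.1% of the 9821 tested genes with a window (47.1% of all genes with one). The stricter TGACNNNGC, a subset of these matches, was present in 15 of 42 members (35.7%) and in 19.4% of the tested genes with a window (16.1% of all). It was in 5 of 12 members that rose (PSMB3, PSMC4, PSMD1, PSMD12 and PSME4), 2 of 7 that fell and 8 of 23 with neither call. The heat shock element GAANNTTC was in 1 of 42 members, PSMC3IP, and in 6.39% of the tested genes, and CCAAT in 21 of 42 and 43.6%. Matches are letters in a window and not binding sites.

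The stretches below are shown because they hold the stricter core upstream of the start, in 3 members that rose (PSMD12, PSMB3, PSME4) and in both members that fell and had it (PSMD5, PSMB9). They are written 5′ to 3′ on the strand of the gene, with the match in capitals; in PSME4 and PSMB9 the match is on the opposite strand, so the capitals show its reverse complement. The stretches lie at chr17:67366709-67366767 (minus strand), chr17:38752612-38752670 (plus), chr2:53970994-53971052 (minus), chr9:120843023-120843081 (minus) and chr6:32854019-32854077 (plus) in that order.
PSMD12: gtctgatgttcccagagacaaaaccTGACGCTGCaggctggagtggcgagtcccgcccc
PSMB3: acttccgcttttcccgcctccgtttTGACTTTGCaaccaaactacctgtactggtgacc
PSME4: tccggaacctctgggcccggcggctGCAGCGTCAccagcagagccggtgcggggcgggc
PSMD5: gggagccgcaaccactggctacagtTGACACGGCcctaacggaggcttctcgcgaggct
PSMB9: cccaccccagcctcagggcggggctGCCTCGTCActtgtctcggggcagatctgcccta
In ES-Cu, PSMD12 was at 2.36 times its control mean and PSMB9 at 0.411 times its control mean. Both were shown because they hold the core, so its presence in both follows from the choice. Any link between the core and these levels was not tested.

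Reads can be shared between a gene and its copies. RefSeq names pseudogenes for 21 of the 48 members, with 13 for PSMC1, 6 for PSME2 and 1 for PSMD12, and how far reads of 50 bases were split between gene and copy was not tested. Exons of 16 members overlap those of another protein-coding gene in GENCODE 29, among them PSMG4, PSMB10, PSMD1, PSMA2 and PSME4, and the strand setting of the counting was not given in the sources used here. Values of these members are uncertain to that extent. PSMB8, PSMB9, PSMC4 and PSMD5 had neither a named pseudogene nor such an overlap.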

How the data were processed

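Total RNA from CAL-27 was read on a BGISEQ-500 in single-end runs of 50 bases, per the labels' protocols. The authors deposited 1 table of TPM, which lists 16809 genes and no read totals. The submitters' processing notes name HISAT and Bowtie2. Which tool quantified the reads, and with what annotation, was not given in the sources used here. GRCm38.p6, the build in the notes, is of the mouse, whereas 16753 of the identifiers were found among human RefSeq genes, so only the promoter sequences carry coordinates, of GRCh38.p14.

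A mean of 1 TPM or more over the 6 libraries was required for testing. Values were fitted as log2(TPM + 1) by limma 3.58.1 (R 4.3.3; trend, two-sided, Benjamini-Hochberg, threshold 0.05), with no replicate block. The fit was repeated after median-of-ratios scaling and after quantile normalization. Shares and ratios were tested with an exact permutation test over libraries. The members and gene lists were chosen with earlier results of these data known, and 1 gene of the associated list is not reported here. Values per library are given for the catalytic subunits, for the members with the highest and lowest log2 fold change of each role, and for up to 4 associated genes each way. PSMD1, PSMD10 and NFE2L1 were added after their values were seen, as were the means of members between the extremes. On simulated data for this comparison with 11927 genes, limma recovered 50 of 50 genes at a log2 change of 1, 49 of 50 at 0.5, 49 of 50 at -0.5 and 50 of 50 at -1, and it called 13 unchanged genes. The simulation held no shift of the median gene between groups, unlike the deposited values, so it does not bear on the choice of scaling. Other settings tried were pseudocounts, filters, removal of the 20 highest genes, no trend, replicates as a block, and each library left out in turn. The stricter motif and quantile-normalized ratios and shares were added after the data were seen.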

Additional observations from a re-analysis of the deposited data

How the results depend on the processing

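The 14 members that rose kept that call under all 13 alternatives that leave the set of 3 scalings in place, and so did 6 of the 7 that fell. PSMB10 was the exception: beside the libraries named above, its call after median-of-ratios scaling was lost without a filter (adjusted p = 0.0513, limma) and without the trend (adjusted p = 0.0528, limma). Leaving out each library gave 14 to 15 rising and 6 to 7 falling members. With the 20 highest genes removed, 23 members rose in all 3 scalings and 26 were called higher on the rescaled TPM. Scaling moved most other counts. After median-of-ratios scaling 37 members were called higher and 7 lower, of the associated list 22 and 4, and of all tested genes 4532 and 4266, against 14 and 19, 12 and 8, and 1628 and 8351 as deposited. Quantile normalization gave 24 higher members, 4 lower genes of the associated list, and 3749 higher and 4756 lower genes of all tested. The stricter antioxidant response element core was found in 15 members in place of 27. On quantile-normalized values, added after the data were seen, the log2 ratios of PSMB8, PSMB9 and PSMB10 to their counterparts differed by -0.64, -1.03 and -0.71, against -0.73, -1.22 and -1.15 on deposited TPM. The differences of the class shares were then -0.63 percentage points for the beta subunits, which changed sign, -1.24 for the immunoproteasome, 2.11 for the PSMD genes, -2.08 for the activators, -0.012 for PSMF1 and -0.39 for the PSMG chaperones. Leaving out each library gave 11 to 12 rising genes of the associated list and 3 to 4 falling ones.

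Some log2 fold changes changed sign and were called by limma on at least one of the scales compared. After median-of-ratios scaling they were PSME3 0.50, PSME1 0.18, PSME2 0.031, PSMD9 0.23, PSMA4 0.55, PSMA6 0.51, PSMA3 0.49, PSMA5 0.44, PSMG1 0.29, PSMG2 0.24, PSMG3 0.034, PSMB6 0.49, PSMB4 0.44, PSMB5 0.36, PSMF1 0.14, PSMD13 0.53, PSMD3 0.45, PSMD7 0.34, PSMC3IP 0.53, DYRK2 0.49, UBE3C 0.55, FBXO7 0.45, DNAJB2 0.33, NFE2L1 0.25, NPEPPS 0.18 and UCHL5 0.14. After quantile normalization they were PSME3 0.16, PSMD9 0.11, PSMA4 0.12, PSMA5 0.10, PSMG1 0.071, PSMF1 0.013, PSMD13 0.086, PSMC3IP 0.33, DYRK2 0.59, UBE3C 0.29 and FBXO7 0.18. With the 20 highest genes removed they were PSME3 0.11, PSMA4 0.15, PSMA6 0.12, PSMA3 0.10, PSMA5 0.046, PSMB4 0.047, PSMD13 0.13 and UBE3C 0.15. Median-of-ratios scaling and the removal of the highest genes divide a library by one factor, whereas quantile normalization moves genes unequally; the cause of its sign changes was not tested.

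Same-numbered libraries did not deviate together over tested genes (correlations of -0.034 to 0.021, against -0.058 to 0.043 for differently numbered ones). Whether samples were paired in culture or processing cannot be told from these correlations. With a replicate block 14 members were called higher and 20 lower, and 14 rose and 7 fell in all 3 scalings. Depth could not be assessed from TPM, so counting error of the low members, such as PSMG4 and PSMF1, is unknown.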

Other observations

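PSMB8 and PSMB9 lie beside the peptide transporter genes TAP1 and TAP2 on chromosome 6, with TAP1 between them and TAP2 on the far side of PSMB8 in the RefSeq order. These neighbours were looked up after the values of PSMB8 and PSMB9 had been seen. TAP1 stood at 64.8, 64.0 and 62.8 TPM in ES-Cu, against 91.3, 87.7 and 97.2 TPM in control, with a log2 fold change of -0.52 as deposited and 0.03 after median-of-ratios scaling. TAP2 stood at 123, 111 and 112 TPM in ES-Cu and 111, 107 and 110.3 TPM in control, with a log2 fold change of 0.07 as deposited and 0.63 after median-of-ratios scaling. All 3 scalings called PSMB8 and PSMB9 lower. TAP1 was called lower as deposited and after quantile normalization (-0.22), but was not called after median-of-ratios scaling. TAP2 was called higher after median-of-ratios scaling and after quantile normalization (0.31), but was not called as deposited.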
